A study of Mus musculus with 3 samples.

Results

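The 10 BCL2 family genes described here were taken by symbol from the 16181 genes that every deposited count table lists, and all 10 were present. They comprise 3 anti-apoptotic genes (Bcl2, Bcl2l1 and Mcl1), 2 effectors (Bax and Bak1) and 5 BH3-only genes (Pmaip1, Hrk, Bad, Bcl2l11 and Bbc3). Their transcripts were counted in single cells from the cerebella of 3 Math1-Cre/Eed fl/fl mice (Eed cKO mice) at postnatal day 7 (P7), with 1 Drop-seq library per mouse. All mice had the same genotype and age, so cell classes were compared within Eed cKO mice and no effect of genotype was measured. Math1-Cre, driven by regulatory sequence of Atoh1, deletes Eed in cerebellar granule neuron progenitors (CGNPs) and their descendants, the granule neurons (CGNs). Astrocytes, oligodendrocytes, interneurons and vascular cells of the same cerebella lie outside that lineage.

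BCL2 family proteins decide whether the outer mitochondrial membrane is opened, the committing step of intrinsic apoptosis. Bcl2, Bcl2l1 (which encodes BCL-xL) and Mcl1 hold the effectors BAX and BAK in check, and the BH3-only proteins relieve that restraint or activate the effectors directly. In the developing cerebellum the pathway removes surplus or damaged CGNPs, which are known for their readiness to undergo apoptosis.

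The 3 libraries held 3481 cell barcodes, no barcode was shared between libraries, and 2373 cells passed the filters. These cells held 3081202 unique molecular identifiers (UMIs, each standing for 1 captured RNA molecule), with a median of 1032 per cell and between 540816 and 1536645 per mouse. The members contributed 1779 UMIs in all. Levels below are counts per 1000000 UMIs (CPM), from the sum over the cells of a class in each mouse, and are given as mean ± SD over the 3 mice. Drop-seq counts transcript ends, so CPM does not need division by gene length, and levels of different genes are compared on that scale. Clustering, from which the members were left out, gave 657 proliferating CGNP-like cells, 527 differentiating CGNP/CGN-like cells, 532 interneuron lineage-like cells, 406 non-neural cells and 75 myoid-like cells. The myoid-like cells were led by muscle genes such as Myl1, Actc1 and Myog. A cluster of 176 cells, 126 of them from mouse 3, carried 8 markers of differentiating CGNP/CGN and 4 of Purkinje cells. It kept no name, because its 10 strongest genes held more Purkinje cell markers (Pcp4 and Calb1) than granule neuron markers. The larger of the 2 proliferating clusters (362 cells) had the haemoglobin gene Hbb-bs as its leading gene ahead of CGNP genes such as Sfrp1 and Atoh1.

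Eed, the targeted gene, was measured at 30.2, 14.01 and 22.3 CPM in the CGNP/CGN-like cells of mice 1, 2 and 3, and at 70.0, 78.9 and 45.5 CPM in their cells outside the lineage. The groups did not overlap, and Eed was lower in CGNP/CGN-like cells by edgeR's quasi-likelihood test (log2 fold change -1.40 ± 0.37 SE, adjusted p = 0.0172). Residual Eed counts do not measure how many cells kept the gene, because Drop-seq reads transcript ends and the place of the deleted exons was not given in the sources used here.

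The effector Bax was the most abundant member in 4 of the 5 classes, all but the myoid-like cells. Summed over all cells it stood at 241 ± 34.4 CPM (715 UMIs), against 75.3 ± 11.2 CPM for Bad, a BH3-only protein controlled by survival-factor signalling, and 68.4 ± 21.3 CPM for Bcl2l1. Mcl1, a short-lived anti-apoptotic protein, followed at 48.2 ± 7.57 CPM. Bcl2l11 (BIM, a direct activator of the effectors) stood at 33.5 ± 5.58 CPM and Pmaip1 (NOXA, which binds MCL1) at 31.0 ± 3.08 CPM. The remaining members were sparse. Hrk (Harakiri, a BH3-only protein that binds BCL-xL and BCL2) reached 26.4 ± 4.97 CPM, Bak1 24.6 ± 2.18 CPM, Bbc3 (PUMA) 22.5 ± 10.9 CPM and Bcl2 11.2 ± 0.773 CPM. Bcl2 was thus represented by 34 UMIs in 2373 cells, and no cell held more than 2.

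**Figure D1:**
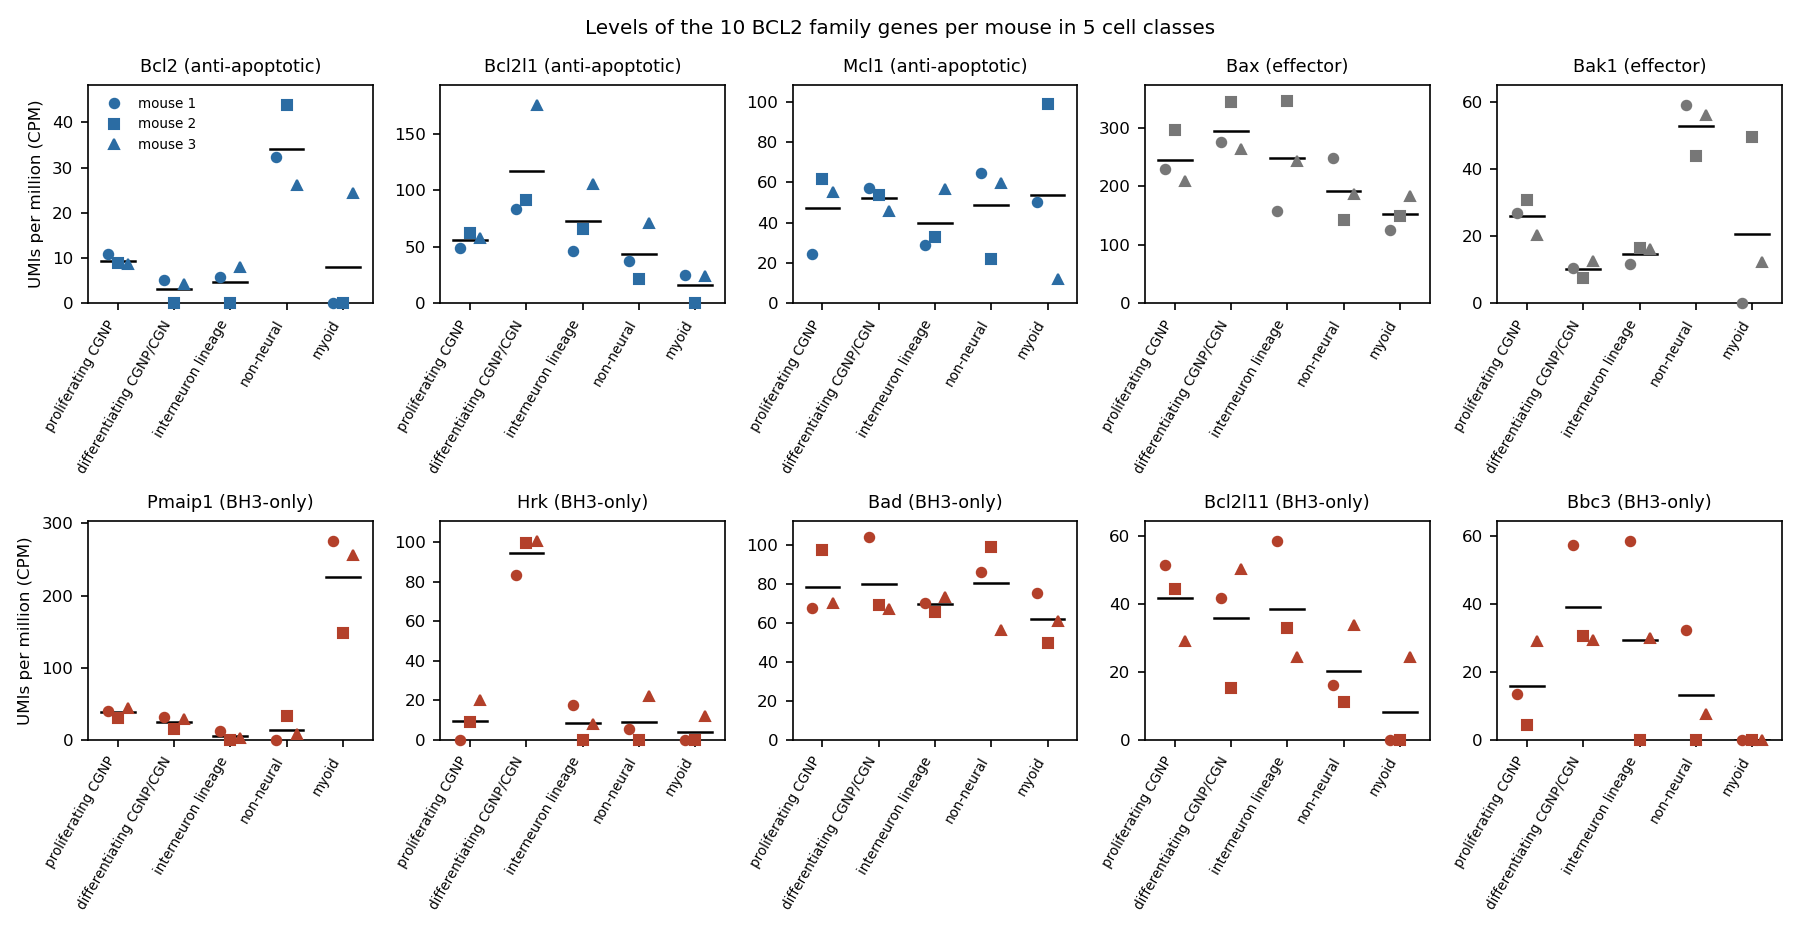
Levels of the 10 members in CPM (vertical axes, each panel on its own scale from 0) in 5 cell classes, with 1 symbol per mouse and a black line at the mean. Hrk stood highest in differentiating CGNP/CGN-like cells (83.2 to 100 CPM) and Pmaip1 in myoid-like cells (148 to 275 CPM), while the levels of Bad in the classes overlapped.

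Proliferating and differentiating CGNP/CGN-like cells were compared to ask which members change as granule cells leave the cell cycle. Of the 10 members, 6 had enough counts to be tested, 2 were lower in proliferating cells at an adjusted p under 0.05 and 0 were higher. Over all genes tested, 14.5% were lower and 13.2% higher, 27.7% in all. The study named BH3-only genes partly from these same cells, so the counts for them are not independent evidence of a direction. The 2 members were Hrk and the anti-apoptotic gene Bcl2l1, on opposite sides of the family's balance.

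Hrk was at 83.2, 99.6 and 100 CPM in the differentiating cells of mice 1, 2 and 3, and at 0, 8.84 and 20.4 CPM in their proliferating cells. The groups did not overlap. The difference corresponded to a log2 fold change of -3.25 ± 0.54 SE (proliferating over differentiating, edgeR's quasi-likelihood test, adjusted p = 0.000164). It rested on 53 UMIs in differentiating and 9 in proliferating cells. It held with every alternative in which Hrk was tested (adjusted p at most 0.00755 in edgeR or DESeq2). Its size moved with the mice, to -2.64 without mouse 1 and -4.54 without mouse 3, and with a minimum of 1000 UMIs per cell Hrk had too few counts. Cells that held a Hrk UMI made up 6.31 ± 2.18% of differentiating cells (median depth 893 UMIs) and 1.58 ± 1.94% of proliferating cells (median depth 1163 UMIs). With each cell thinned to 500 UMIs, these shares were 3.58 ± 1.07% and 0.373 ± 0.329%. The shallower cells therefore held the larger share. In the interneuron lineage, the share was 0.901 ± 0.815%, and in non-neural cells 1.28 ± 1.72%. Within the differentiating class, Hrk reached 115, 112 and 128 CPM in the cluster of 348 cells led by Cntn2, an adhesion molecule of newly born granule neurons. In the cluster of 179 cells led by Mab21l2 it reached 28.3, 79.6 and 40.1 CPM, and the clusters did not overlap.

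Bcl2l1 was at 48.6, 61.9 and 58.2 CPM in proliferating cells and at 83.2, 91.9 and 176 CPM in differentiating cells. Each mouse had more in the differentiating cells, and the groups did not overlap. The log2 fold change was -1.14 ± 0.34 SE (edgeR's quasi-likelihood test, adjusted p = 0.0161). Without mouse 3, in which Bcl2l1 was highest, it was -0.68 and missed the threshold (edgeR, adjusted p = 0.266). With DESeq2 the adjusted p was 0.0572, and over the alternatives run it ranged from 0.00118 to 0.266. Within the differentiating class Bcl2l1 was at 90.4, 62.2 and 134 CPM in the cluster led by Cntn2 and at 70.8, 139 and 267 CPM in the cluster led by Mab21l2, with overlap. Its mean was higher in the latter, where that of Hrk was lower. Mcl1, the other anti-apoptotic gene tested, was at 47.2 ± 20.04 and 52.3 ± 5.71 CPM and missed the threshold (edgeR, adjusted p = 0.754).

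Among the effectors, Bax was at 245 ± 45.3 CPM in proliferating and 295 ± 43.8 CPM in differentiating cells, with overlapping groups (log2 fold change -0.29 ± 0.22 SE, edgeR's adjusted p = 0.374). Bak1 was at 27.0, 30.9 and 20.4 CPM in proliferating cells and at 10.4, 7.66 and 12.6 CPM in differentiating cells, without overlap. Its 30 UMIs were too few for the filter on low counts, and without that filter it missed the threshold (log2 fold change 1.31, edgeR's adjusted p = 0.272). Most Bak1 UMIs of the proliferating class, 18 of 24, lay in the cluster led by Hbb-bs, where the level was 42.5 ± 1.56 CPM, against 12.7 ± 7.12 CPM in the cluster led by the replication-dependent histone gene Hist1h1b. Hbb-bs is a marker of red blood cells, and whether their RNA had a part in this was not tested.

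The other BH3-only genes did not pass. Bad was at 78.2 ± 16.5 CPM in proliferating and 79.9 ± 20.8 CPM in differentiating cells, a log2 fold change of -0.09 ± 0.32 SE (edgeR's adjusted p = 0.876). Bcl2l11 was at 41.5 ± 11.4 and 35.7 ± 18.2 CPM (edgeR's adjusted p = 0.916). Pmaip1 was at 40.5, 30.9 and 43.6 CPM in proliferating cells and at 31.2, 15.3 and 29.3 CPM in differentiating cells, higher in the former in each mouse but with overlapping groups, and it was too sparse for the filter. Bbc3 was at 13.5, 4.42 and 29.1 CPM against 57.2, 30.6 and 29.3 CPM, lower in proliferating cells in each mouse, and too sparse as well. Without the filter neither passed (edgeR's adjusted p = 0.541 and 0.221). Bcl2 had 9 UMIs in proliferating and 2 in differentiating cells.

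Sequence is shown for the start sites of Hrk and Bcl2l1, because these 2 members passed the test between proliferating and differentiating cells. Hrk lies on chr5:118164648-118189478 (plus strand) and Bcl2l1 on chr2:152780668-152831728 (minus strand) in GENCODE M21 on GRCm38. RefSeq start sites on GRCm38.p6 were used, and promoter windows for 9 of the 10 members were matched by symbol. The Hrk window, chr5:118169514-118169747, ends just before an annotated exon and lies inside the span of the gene model. The Bcl2l1 window, chr2:152831729-152831978, lies before the outermost start site. Both are written 5′ to 3′ on the strand of the gene, with capitals marking the E-box CANNTG, the core motif of bHLH factors such as ATOH1 and NEUROD1, searched on both strands (it reads the same on both).
Hrk: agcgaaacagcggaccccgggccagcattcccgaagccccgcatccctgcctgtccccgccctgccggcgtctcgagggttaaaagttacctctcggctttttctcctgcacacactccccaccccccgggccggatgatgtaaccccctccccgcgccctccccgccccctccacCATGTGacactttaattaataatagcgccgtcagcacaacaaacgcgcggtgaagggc
Bcl2l1: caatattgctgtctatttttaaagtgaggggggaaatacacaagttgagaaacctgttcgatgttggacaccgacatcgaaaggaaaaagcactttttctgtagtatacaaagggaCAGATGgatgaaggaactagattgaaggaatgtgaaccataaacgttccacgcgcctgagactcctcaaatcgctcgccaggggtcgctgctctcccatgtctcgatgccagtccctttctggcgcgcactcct
The Hrk window of 234 bases held 1 E-box (CATGTG) and 20 CG dinucleotides, and the Bcl2l1 window of 250 bases held 1 E-box (CAGATG) and 12. An E-box is found in 64.0% of all 32851 promoter windows over 234 bases and in 66.2% over 250 bases, so its presence is the usual case. The median number of CG dinucleotides over all windows was 5 and 6 at these lengths. Of the 9 members, Bcl2 had the richest first window, with 36 CG dinucleotides in 250 bases, and Bak1 the poorest, with 8.

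To ask how members of the wider pathway moved between the same cells, 92 listed genes of apoptosis, members included, were considered, of which 82 were in the files. Of the 72 that are not members, 33 were tested, 5 were higher in proliferating cells and 4 lower. These 9 were 27.3% of those tested, near the 27.7% of all genes, so the count says nothing particular to the pathway. The inhibitor of apoptosis Birc5 (survivin), also a mitotic gene, was the highest (288 against 19.6 CPM, log2 fold change 3.95 ± 0.33 SE). Among p53 targets, Siva1 had a log2 fold change of 2.002 and Cdkn1a, the cell cycle inhibitor p21, of 1.47. Bok, an effector-like BCL2 family gene, was higher by 1.06, and Slc25a5, an adenine nucleotide carrier of the inner mitochondrial membrane, by 1.01. The 14-3-3 genes Ywhag, Ywhaz and Ywhab were lower in proliferating cells, with log2 fold changes of -1.49, -0.64 and -0.58. The 14-3-3 proteins bind phosphorylated BAD. With mice as blocks, 6 of these 33 genes were higher and 9 lower (45.5%, against 39.1% of all genes tested in that fit).

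To compare cells of the lineage in which Math1-Cre acts with neighbours from the same cerebella, CGNP/CGN-like cells were set against the 938 cells outside the lineage. Of the 10 members, 9 were tested, 2 were higher in CGNP/CGN-like cells and 0 lower, 22.2% in all. Over all genes tested, 3.90% were higher and 8.62% lower, 12.5% in all. With mice as blocks the shares were 22.2% and 20.3%, so in that fit the count of members was near the background. The 2 members, Pmaip1 and Hrk, are both BH3-only genes. The next 2 comparisons use the same CGNP/CGN-like sums and parts of the same outside cells, so they are not separate evidence.

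Pmaip1 was at 37.3, 25.2 and 37.7 CPM in the CGNP/CGN-like cells of mice 1, 2 and 3, and at 5.60, 19.7 and 4.71 CPM outside the lineage. The groups did not overlap (log2 fold change 2.19 ± 0.54 SE, edgeR's quasi-likelihood test, adjusted p = 0.0095). The share of CGNP/CGN-like cells that held a Pmaip1 UMI was 3.93 ± 1.88%, or 1.21 ± 0.362% after thinning, against 0.477 ± 0.537% in the interneuron lineage before and after thinning. Non-neural cells held 1.61 ± 1.79%, and 0% after thinning. Without mouse 1 Pmaip1 missed the threshold (log2 fold change 1.94, edgeR's adjusted p = 0.165), without mouse 2 its log2 fold change was 2.84, and without mouse 3 it had too few counts.

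Hrk was at 28.5, 42.03 and 53.2 CPM in CGNP/CGN-like cells and at 11.2, 0 and 14.1 CPM outside the lineage, without overlap (log2 fold change 1.88 ± 0.51 SE, edgeR's adjusted p = 0.0177). Leaving out mouse 1, 2 or 3 moved its adjusted p in edgeR to 0.0836, 0.0974 and 0.0945. Of the 62 Hrk UMIs of the lineage, 53 lay in its differentiating cells, and the proliferating cells (9.73 ± 10.2 CPM) overlapped with the cells outside the lineage (8.44 ± 7.46 CPM). With mice as blocks, the count of all genes called rose from 951 to 1540, and the same 2 members passed, 22.2% of the 9 tested against 20.3% of all genes.

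Of the other members, Bad, Mcl1 and Bbc3 had overlapping levels. Bad was at 78.5 ± 9.21 CPM inside and 76.6 ± 9.89 CPM outside the lineage, Mcl1 at 48.6 ± 11.9 and 44.0 ± 16.2 CPM, and Bbc3 at 23.9 ± 8.55 and 21.7 ± 22.4 CPM. Bcl2l1 (79.9 ± 23.8 against 57.5 ± 29.1 CPM) and Bcl2l11 (39.8 ± 7.41 against 28.1 ± 8.33 CPM) had higher values in CGNP/CGN-like cells in 3 of 3 mice, with overlapping groups, and missed the threshold (edgeR's adjusted p = 0.629 and 0.528). Bax was higher in CGNP/CGN-like cells in 3 of 3 mice without overlap (264 ± 44.0 against 216 ± 10.2 CPM), but missed the threshold (log2 fold change 0.28 ± 0.20 SE, edgeR's adjusted p = 0.465). Bak1 was lower in 3 of 3 mice without overlap (20.3 ± 2.78 against 34.1 ± 1.99 CPM), and also missed it (log2 fold change -0.76 ± 0.39 SE, edgeR's adjusted p = 0.255). Bcl2 was at 7.12 ± 1.66 against 20.5 ± 5.37 CPM, also without overlap, and was too sparse for the filter (without the filter, edgeR's adjusted p = 0.257). Of 44 other pathway genes tested, 2 were higher (Cdkn1a, log2 fold change 1.56, and Siva1, 1.38) and 1 lower (Cflar, the caspase-8 inhibitor FLIP, -1.38), or 6.82% in all, against 12.5% of all genes. With mice as blocks these counts were 4 and 5, or 20.5%, against 20.3% of all genes.

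**Figure D2:**
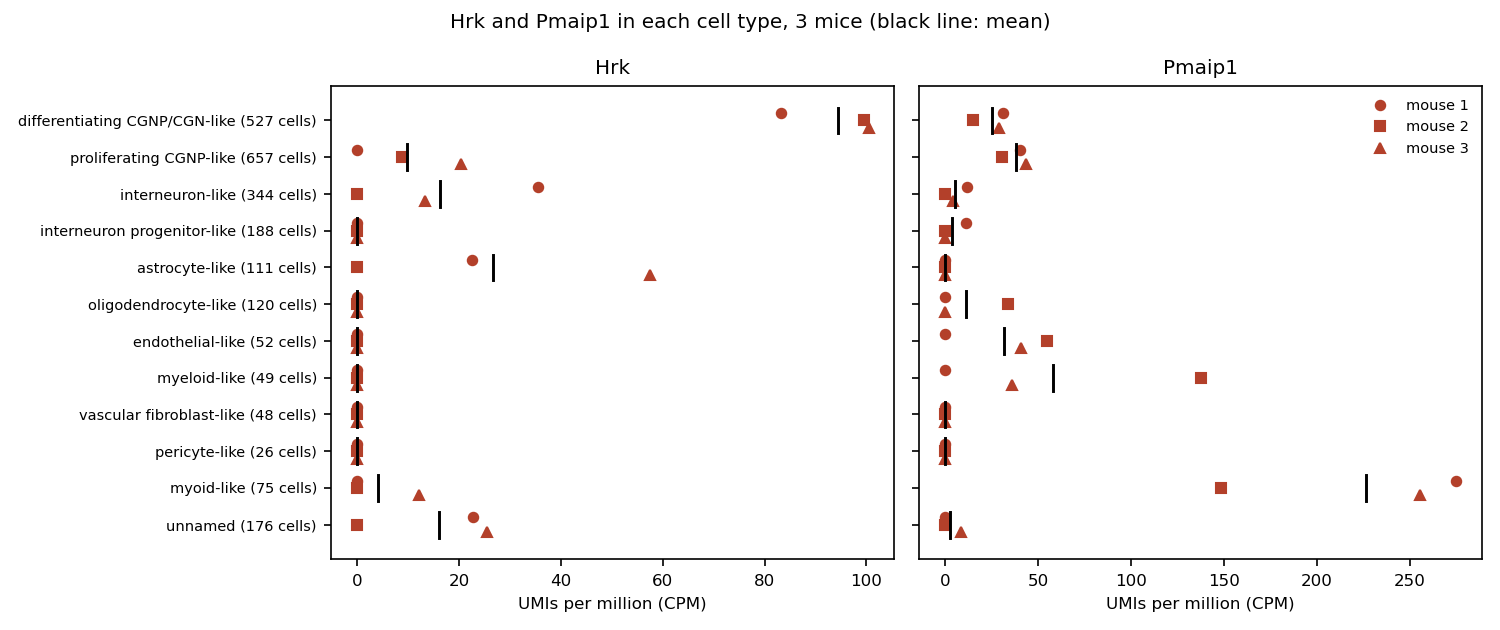
Hrk and Pmaip1 in CPM (horizontal axes) in each of 11 named cell types and the unnamed cluster, with 1 symbol per mouse and a black line at the mean. For Hrk the 3 mice of the differentiating CGNP/CGN-like type, and for Pmaip1 those of the myoid-like type, lie above every mouse of every other type. For Pmaip1 the nearest values, 148 CPM in myoid-like and 138 CPM in myeloid-like cells, rest on 3 UMIs and 1 UMI.

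Over the 11 named cell types and the unnamed cluster, the differentiating CGNP/CGN-like type had the highest Hrk level, 94.4 ± 9.70 CPM, above the next type, the astrocyte-like cells (26.7 ± 29.0 CPM, 7 UMIs), without overlap. Below the first place, neighbours in the order did not differ beyond their spread. Hrk had 0 UMIs in the endothelial-like, myeloid-like, oligodendrocyte-like, pericyte-like, vascular fibroblast-like and interneuron progenitor-like cells. With 3 counts as the limit, this allows up to 11.9 CPM in the interneuron progenitor-like and 19.3 CPM in the oligodendrocyte-like cells, but up to 113 CPM in the 26 pericyte-like cells, so that a level like that of differentiating cells would not have been detectable there. Pmaip1 was highest in myoid-like cells (226 ± 68.3 CPM), above the myeloid-like cells (58.0 ± 71.6 CPM, 2 UMIs) without overlap. The nearest values, 148 and 138 CPM, were both of mouse 2 and rested on 3 UMIs and 1 UMI.

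Against the interneuron lineage, the other neuronal lineage named in these cerebella, 7 members were tested, 1 was higher in CGNP/CGN-like cells and 0 lower. Over all genes tested, 3.95% were higher and 4.32% lower, 8.27% in all. The member was Hrk, with 17.5, 0 and 8.13 CPM in the interneuron lineage of mice 1, 2 and 3 (log2 fold change 2.01 ± 0.60 SE, edgeR's adjusted p = 0.0385). Without mouse 1 the log2 fold change was 2.78. It missed the threshold with DESeq2 (adjusted p = 0.157), without mouse 2 (edgeR, 0.178) and with a mitochondrial limit of 5% (edgeR, 0.0528). Pmaip1 had 3 UMIs in the interneuron lineage, at 11.7, 0 and 2.71 CPM, and was too sparse for the filter. Without the filter its log2 fold change was 2.75 (edgeR's adjusted p = 0.00721). Bcl2l1 (72.7 ± 30.1 CPM in the interneuron lineage), Bax (249 ± 93.8 CPM), Bcl2l11 (38.5 ± 17.7 CPM), Mcl1, Bad and Bbc3 had overlapping levels and missed the threshold in edgeR, with the lowest adjusted p, 0.716, for Bbc3. In CGNP/CGN-like cells Bak1 stood at 20.3 ± 2.78 CPM, against 14.8 ± 2.70 CPM in the interneuron lineage, a higher value in 3 of 3 mice and without overlap, and Bcl2 was at 7.12 ± 1.66 and 4.65 ± 4.19 CPM with overlap. Both were too sparse for the filter, and without it neither passed (edgeR's adjusted p = 0.818 and 0.958). With mice as blocks the count of all genes called rose from 534 to 928 and the same member passed, 14.3% of the 7 tested against 14.4% of all genes, so the count of members was at the background.

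Of 41 other pathway genes tested against the interneuron lineage, 3 were higher in CGNP/CGN-like cells and 2 lower, or 12.2% against 8.27% of all genes. Cdkn1a had a log2 fold change of 2.20, Siva1 of 1.16 and Jun, a transcription factor that can induce BH3-only genes in neurons, of 1.89. Ddit3, the stress factor CHOP, had a log2 fold change of -1.97 and Slc25a5 of -0.60. With mice as blocks the counts were again 3 and 2, or 12.2%, against 14.4% of all genes.

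The change of Hrk between progenitors and neurons was set beside that in the interneuron lineage, where interneuron progenitor-like cells held 0 and interneuron-like cells 6 Hrk UMIs. The difference of the log2 fold changes (CGNP/CGN minus interneuron lineage) was 1.45 and missed the threshold (edgeR's interaction term, adjusted p = 0.885, with 1.28% of all genes tested called). The size of this fitted value depends on how a count of 0 is treated. With 0 Hrk UMIs in the interneuron progenitor-like cells, this comparison cannot tell whether the change of Hrk was particular to the granule lineage.

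Against the 406 non-neural cells, 7 members were tested, 1 was lower in CGNP/CGN-like cells and 0 higher, and over all genes tested 17.7% were lower and 11.0% higher, 28.7% in all. The member was the effector Bak1, at 21.3, 22.4 and 17.2 CPM in CGNP/CGN-like cells and 59.2, 43.9 and 56.0 CPM in non-neural cells, without overlap (log2 fold change -1.53 ± 0.40 SE, edgeR's adjusted p = 0.00647). Without mouse 1 or mouse 3 its adjusted p in edgeR was 0.0686 or 0.0663. Its non-neural level was led by the endothelial-like (88.9 ± 66.0 CPM) and oligodendrocyte-like cells (74.2 ± 35.2 CPM). Pmaip1, at 0, 32.9 and 7.47 CPM in non-neural cells, missed the threshold (log2 fold change 1.73 ± 0.67 SE, edgeR's adjusted p = 0.0587) and passed with mice as blocks (edgeR, 0.0442). Mouse 2 gave 3 of its 5 non-neural UMIs. Over the alternatives in which Pmaip1 was tested, its log2 fold change ran from 1.035 to 2.955 and its adjusted p from 0.0189 to 0.381 (edgeR or DESeq2).

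Bcl2 was at 8.89, 5.60 and 6.86 CPM in CGNP/CGN-like cells and at 32.3, 43.9 and 26.1 CPM in non-neural cells, without overlap. It was too sparse for the filter, and without the filter its log2 fold change was -2.01 (edgeR's adjusted p = 0.0214). Its 17 non-neural UMIs lay mostly in astrocyte-like cells, with 12 UMIs and 88.8 ± 30.7 CPM, the highest mean of Bcl2 in any type. The mice overlapped with those of the next type, the endothelial-like cells (52.4 ± 10.7 CPM, 4 UMIs). Hrk, too sparse as well, had a log2 fold change of 1.77 without the filter (edgeR's adjusted p = 0.0185). Bax (264 ± 44.0 against 192 ± 52.7 CPM), Bcl2l1 (79.9 ± 23.8 against 43.5 ± 25.0 CPM) and Bcl2l11 (39.8 ± 7.41 against 20.2 ± 11.9 CPM) missed the threshold, with adjusted p from 0.282 to 0.384 in edgeR. Mcl1 and Bad had nearly equal means. Bbc3 was at 23.9 ± 8.55 against 13.2 ± 16.9 CPM, with overlap, and was too sparse for the filter (without the filter, edgeR's adjusted p = 0.456). Of 39 other pathway genes tested, 6 were higher in CGNP/CGN-like cells (among them Siva1, Cdkn1a, Birc5, Trp53 and Ywhaq) and 5 lower (Tnfrsf1a, Cflar, Jun, Casp6 and Xiap). In all 28.2% were called, near the 28.7% of all genes. Among them the death receptor gene Tnfrsf1a had a log2 fold change of -2.36, Cflar of -1.80 and Siva1 of 1.53. With mice as blocks these counts were 9 and 6, or 38.5%, against 35.7% of all genes.

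**Figure D3:**
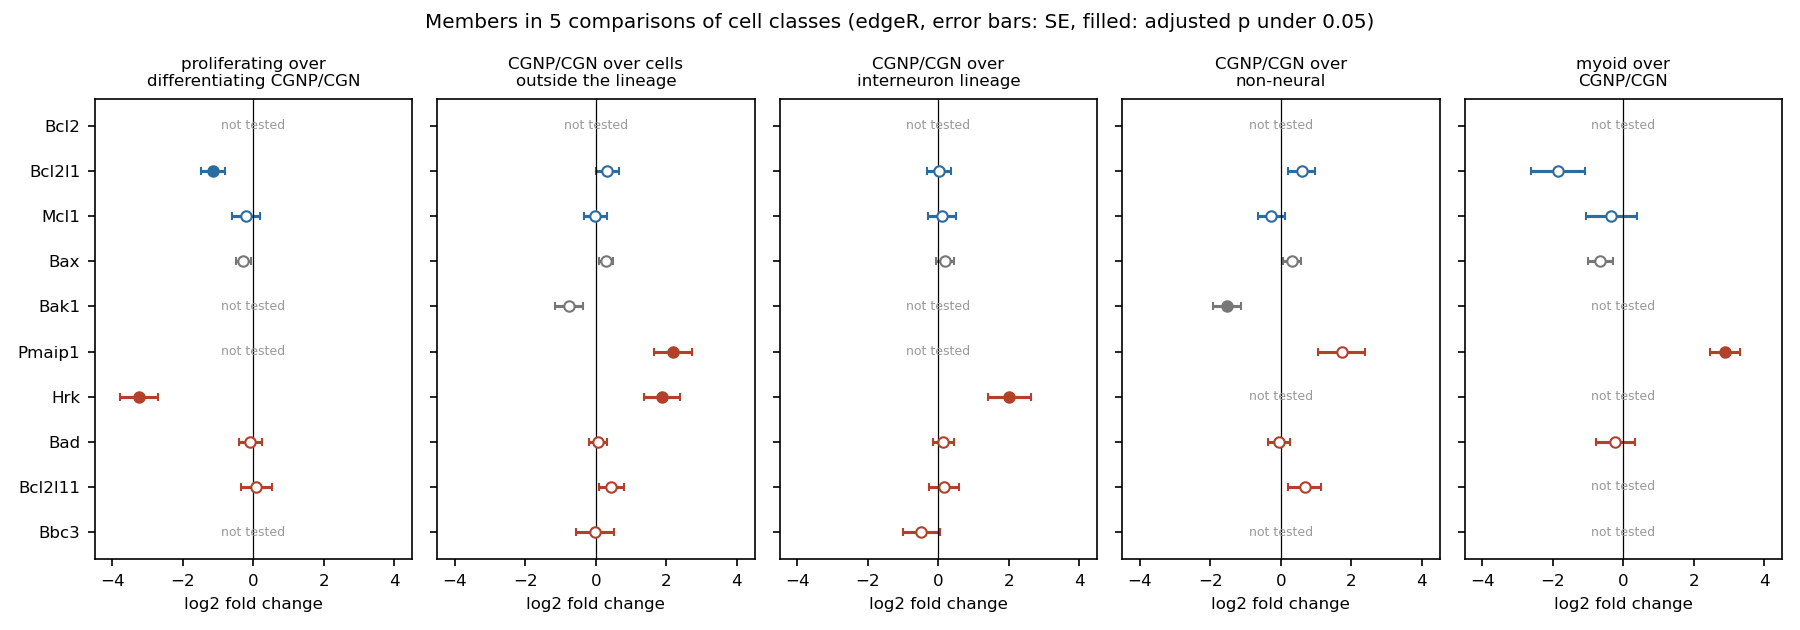
Log2 fold changes (horizontal axes, edgeR) of the 10 members in 5 comparisons of cell classes, with SE as error bars and filled symbols where the adjusted p was under 0.05. Hrk and Pmaip1 gave 5 of the 7 filled symbols, among them the 2 farthest from 0 (-3.25 and 2.87).

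The myoid-like cells, which carried muscle genes inside a cerebellum, were compared with CGNP/CGN-like cells. Only 5 members were tested in these 75 cells, 1 was higher and 0 lower, 20% in all. Over all genes tested, 9.07% were higher and 11.8% lower, 20.9% in all, so the count of members was at the background. Pmaip1 was at 275, 148 and 256 CPM in the myoid-like cells of mice 1, 2 and 3, against 37.3, 25.2 and 37.7 CPM in CGNP/CGN-like cells. The groups did not overlap (log2 fold change 2.87 ± 0.42 SE, edgeR's adjusted p = 3.33e-07), and the call held with every alternative run (adjusted p at most 0.00049 in edgeR or DESeq2). A Pmaip1 UMI was present in 26.8 ± 10.3% of myoid-like cells (median depth 1388 UMIs) and in 10.7 ± 3.88% after thinning. Myoid-like cells thus held 35 of the 97 Pmaip1 UMIs, though they were 75 of 2373 cells.

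Bcl2l1 was at 25.0, 0 and 24.4 CPM in myoid-like cells and at 60.5, 72.9 and 106 CPM in CGNP/CGN-like cells. The groups did not overlap, but with 3 UMIs in myoid-like cells the difference missed the threshold (log2 fold change -1.85 ± 0.77 SE, edgeR's adjusted p = 0.0848). Bax was lower in 3 of 3 mice (152 ± 29.0 against 264 ± 44.0 CPM), without overlap, and missed it as well (log2 fold change -0.65 ± 0.36 SE, edgeR's adjusted p = 0.223). Mcl1 (53.7 ± 43.5 CPM) and Bad (61.8 ± 12.8 CPM) overlapped with CGNP/CGN-like cells. The other 5 members were too sparse for the filter. Bcl2 and Bak1 had 2 UMIs each, with overlapping levels. Hrk had 1 UMI, with 0, 0 and 12.2 CPM against 28.5, 42.03 and 53.2 CPM in CGNP/CGN-like cells, and Bcl2l11 had 2, with 0, 0 and 24.4 CPM against 48.0, 33.6 and 37.7 CPM. Bbc3 had 0 UMIs, which allows up to 21.1 CPM, close to the 23.9 CPM of CGNP/CGN-like cells. These 3 genes had lower values in myoid-like cells in 3 of 3 mice, without overlap, but without the filter they missed the threshold (edgeR's adjusted p = 0.144 for Hrk, 0.355 for Bcl2l11 and 0.11 for Bbc3).

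Cdkn1a, a p53 target as Pmaip1 is, was at 2854 CPM in myoid-like and 180 CPM in CGNP/CGN-like cells (log2 fold change 4.00 ± 0.27 SE). Siva1, another p53 target, was lower in myoid-like cells (-1.43). Whether p53 had a part in these levels was not tested. Of 33 other pathway genes tested, 2 were higher (Cdkn1a and Slc25a5) and 5 lower (among them Bok, Birc5, Ywhaq and Siva1), or 21.2%, near the 20.9% of all genes. Bok had 0 UMIs in myoid-like cells, which allows up to 21.1 CPM, against 61.2 CPM in CGNP/CGN-like cells.

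The balance between the 2 sides of the family was taken as the share of member UMIs that came from effectors and BH3-only genes. It was 78.1 ± 4.61% over all cells, or 1367 of 1779 UMIs (76.8%, exact binomial 95% interval 74.8% to 78.8%, which covers counting error only). It was 83.7%, 79.5% and 77.5% in the proliferating CGNP-like cells of mice 1, 2 and 3, and 80.6%, 80.0% and 71.0% in their differentiating cells. The ranges overlapped. The means, 80.2 ± 3.14% and 77.2 ± 5.38%, differed by less than their spread, although Hrk and Bcl2l1 changed within the family. The interneuron lineage (78.3 ± 7.18%) and the non-neural cells (75.3 ± 4.56%) overlapped with both. In myoid-like cells the share was 86.4%, 80.0% and 90.0%.

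The roles that made up the share differed more than the share itself. BH3-only genes gave 63.6%, 40.0% and 58.0% of member UMIs in the myoid-like cells of mice 1, 2 and 3, against 37.4%, 29.9% and 35.4% in CGNP/CGN-like cells, without overlap. The 40.0% of mouse 2 came from only 3 UMIs of Pmaip1 and 1 of Bad, so the lack of overlap rests on few counts. Pmaip1 gave 35 of the 82 member UMIs in myoid-like cells. In oligodendrocyte-like cells the effectors gave 77.0 ± 7.33% and BH3-only genes 12.1 ± 2.69% of member UMIs. The lowest pro-apoptotic shares of types with over 50 member UMIs were those of astrocyte-like (64.0 ± 7.91%) and endothelial-like cells (65.9 ± 9.55%). Mouse 3 had the lowest share in the proliferating, differentiating, interneuron lineage-like and non-neural classes, and its library was also the deepest. Whether depth had a part in that was not tested. Abundant genes weigh most in the share, with Bax giving 715 of the 1779 UMIs, and without Mcl1 it was higher, at 85.1 ± 4.06% over all cells.

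**Figure D4:**
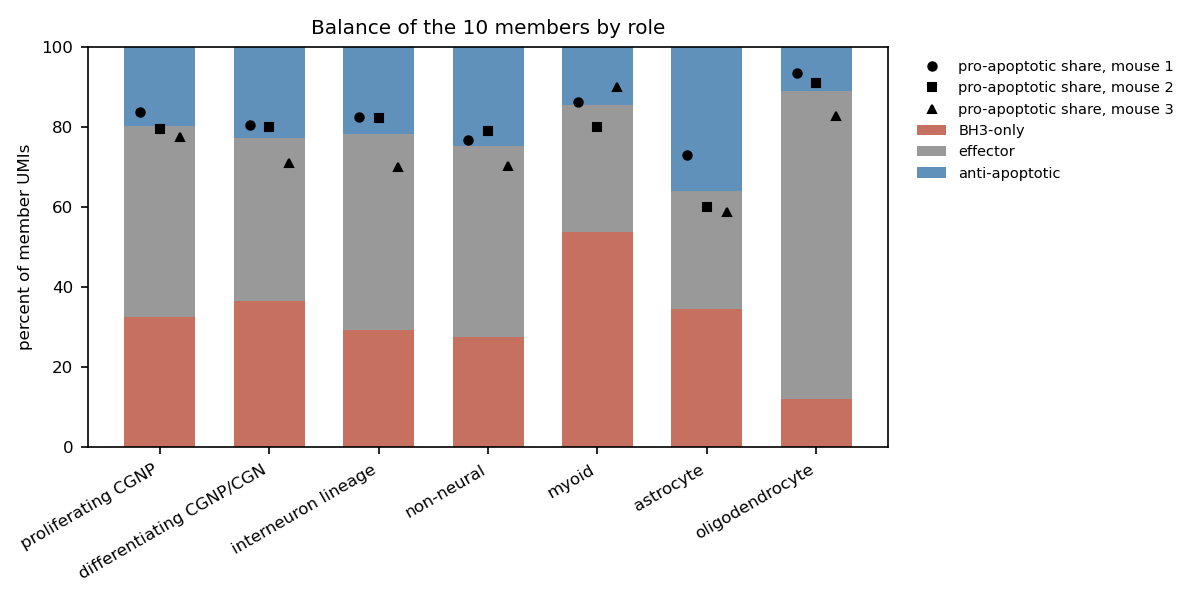
Percent of member UMIs (vertical axis, from 0) given by BH3-only genes, effectors and anti-apoptotic genes in 7 cell classes, as stacked means over the 3 mice, with symbols for the pro-apoptotic share of each mouse. The symbols of the first 4 classes overlap, while BH3-only genes give 53.9% in myoid-like and 12.1% in oligodendrocyte-like cells.

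For the 5 members with at least 100 UMIs, the genes with the most similar pattern over the 33 sums of a mouse and a named type were sought among 5912 genes by Pearson's r of log2(CPM + 20). The highest were Sp3 for Bad (r = 0.81), Klhdc3 for Bcl2l1 (r = 0.74), Col4a3bp for Mcl1 (r = 0.74), Smarcc2 for Bax (r = 0.73) and Ofd1 for Bcl2l11 (r = 0.72). These values describe sums that share libraries and depth, and the best of 5912 correlations is high by selection.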

How the data were processed

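Drop-seq libraries from 3 P7 Eed cKO cerebella, 1 per mouse, were analysed. The authors deposited 1 table of raw counts of UMIs for each mouse, with genes against barcodes and no normalization. STAR and mm10 are named in the submitters' processing notes, and the strand setting of counting was not given in the sources used here, so UMIs of Bak1, Bad and Bcl2 cannot be told from those of the overlapping opposite-strand genes Ggnbp1, Gpr137 and D630008O14Rik. Bcl2 and Bax also overlap gene models on their own strand. Cells with at least 500 UMIs and 200 genes, at most 10% mitochondrial UMIs and neither UMIs nor genes beyond 4 SD over their mouse's median were kept (that upper limit stood in for a doublet caller). Clusters came from Seurat 5.3.0 with sctransform 0.4.2 in R 4.3.3, with 82 apoptosis genes held out, 3000 variable genes, 15 components and resolution 0.8, and were named from marker lists. A name needed 3 markers, each found in 10% of the cluster and 2 times as high as elsewhere after adding 20 CPM. The type also had to lead in number of markers. Among the cluster's 10 strongest genes, no other type could have more markers (the 2 CGNP/CGN types were not weighed against each other there). A dividing cluster with 5 markers of another type took that type, a rule set after the clusters were seen.

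UMIs were summed per mouse and class, and classes were compared with edgeR 4.0.16 (its quasi-likelihood test after TMM scaling and filterByExpr, with p-values of all tested genes adjusted by Benjamini-Hochberg). Adjusted p under 0.05 was called, SE is the log2 fold change over the square root of F, and the test was checked on simulated data, where the share of false calls lay above the nominal level in 3 of the 5 comparisons. DESeq2 1.42.0 served as an alternative. The 2 sums compared share an animal and a library, and their deviations correlated (r from 0.0940 to 0.393), so fits with mice as blocks were run. All 10 members are named in every comparison, together with up to 8 called genes of the wider lists with the largest change, and further called genes are named only to complete a count, after their values were seen (1 listed gene is counted but not reported here). The members, the lists and the comparisons were chosen with earlier results of these data known. A comparison of barcodes with over 10% mitochondrial UMIs was planned and not run, as there were 17 such barcodes with 3 member UMIs and, on data simulated at their depth, most calls were false.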

Additional observations from a re-analysis of the deposited data

Results flagged for a closer look

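The unnamed cluster of 176 cells entered none of the main comparisons, and 7 members held more than 3 UMIs there. Bax was at 204 CPM, Bcl2l1 at 72.3 CPM, Bcl2l11 at 61.7 CPM, Bad at 58.1 CPM, Bbc3 at 44.8 CPM, Mcl1 at 30.3 CPM and Hrk at 16.1 CPM, as means over the 3 mice. Mouse 2 gave 10 of these cells and mouse 3 gave 126, so the means weigh unequal samples. The Bcl2l11 value rests on 5 UMIs, 2 of them from mouse 2, where 1 UMI weighs most. Single values in groups of 3 mice were not tested for standing apart. Summed over all barcodes, gene counts differed between mice 1 and 2 by a chi-square of 2.91 per degree of freedom, and by 5.72 and 5.04 between mouse 3 and mice 1 and 2.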

How the results depend on the processing

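Members called in the main comparisons kept their direction under every alternative in which they were tested. The alternatives were another normalization, DESeq2, no filter on low counts, mice as blocks, each mouse left out, resolutions of 0.4 and 1.2, a minimum of 1000 UMIs, no upper limits, a mitochondrial limit of 5% and members kept in the clustering. The handling of the unnamed cluster and the difference of changes were added after seeing the data. At resolution 0.4 no cluster was named differentiating, so proliferating and differentiating cells could not be compared, and in the other comparisons the CGNP/CGN-like class held 834 cells in place of 1184, namely the 657 proliferating cells and 177 of the 527 differentiating cells, while 350 of the latter fell into an unnamed cluster. The causes of the shifts below were not tested. Over the alternatives, the share of all genes called ran from 11.5% to 39.1% between proliferating and differentiating cells, 7.09% to 20.3% outside the lineage, 4.44% to 14.4% in the interneuron lineage comparison, 17.7% to 35.7% against non-neural cells and 7.77% to 21.6% in the myoid-like comparison, and counts of members are read against these.

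With mice as blocks (replicate block), the genes called rose to 1540 outside the lineage and 928 in the interneuron lineage comparison, Pmaip1 brought the members higher than in non-neural cells to 1, Bbc3 outside the lineage turned to 0.0786, and no other call of a member changed. Without the filter on low counts, 1614 genes were called against cells outside the lineage and 2826 against non-neural cells, 2 members were higher than in the interneuron lineage, and 2 were higher and 2 lower than in non-neural cells. DESeq2 called 1 member lower in proliferating cells and 0 higher than in the interneuron lineage, where it called 20.8% and 5.64% of all genes. A minimum of 1000 UMIs gave 0 members lower in proliferating cells, 1 higher than outside the lineage, 0 higher than in the interneuron lineage with 321 genes called, and 0 lower than in non-neural cells. Resolution 0.4, with this smaller class, gave 878 genes called against the interneuron lineage and 1 member higher than outside the lineage, leaving out the upper limits gave 1 member higher than outside the lineage and 0 higher than in the interneuron lineage, and the mitochondrial limit of 5% gave 0 against the interneuron lineage.

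Leaving out each mouse gave 902 to 1091 genes and 1 to 2 members lower in proliferating cells, 548 to 805 genes and 0 to 1 members higher than outside the lineage, and 250 to 338 genes and 0 to 1 members higher than in the interneuron lineage. It gave 0 to 1 members higher and 0 to 2 lower than in non-neural cells, and 492 to 747 genes in the myoid-like comparison. Log2 fold changes that turned sign were not called in either direction. When each mouse was left out they ranged, in proliferating over differentiating cells, from -0.49 to 0.24 for Mcl1, -0.29 to 0.27 for Bad and -0.19 to -0.0492 for Bcl2l11. They ranged from -0.29 to 0.17 for Mcl1 outside the lineage, and in the interneuron lineage comparison from -0.0472 to 0.36 for Bcl2l1, -0.0816 to 0.10 for Mcl1 and -0.26 to 0.50 for Bcl2l11. Against non-neural cells they ranged from -0.56 to 0.0944 for Mcl1 and -0.20 to 0.0525 for Bad, and in myoid-like cells from -0.84 to 0.58 for Mcl1. Bad in proliferating cells turned to 0.0152 without the filter, 0.0515 without upper limits, 0.0591 with the 5% limit, 0.0621 with members clustered and 0.11 with the unnamed cluster counted as differentiating. Against cells outside the lineage Mcl1 turned to 0.0386 with DESeq2, 0.0407 without the filter and 0.0201 with the 5% limit, Bbc3 to 0.0200 with DESeq2 and 0.0381 without the filter, and Bad to -0.24 with 1000 UMIs. Against the interneuron lineage Bcl2l1 turned to -0.11 at resolution 0.4 and -0.00599 with members clustered, Mcl1 to -0.00726 at resolution 0.4, and with 1000 UMIs Bad to -0.15 and Bcl2l11 to -0.23. Against non-neural cells Bad turned to 0.13 without the filter, 0.0101 at resolution 0.4 and 0.0962 with the 5% limit. The difference of changes of Hrk turned to -1.15 without upper limits.

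Without Mcl1 the pro-apoptotic share was 87.3% in proliferating, 83.0% in differentiating, 83.0% in non-neural and 95.6% in myoid-like cells, and 85.1% in all cells. Without Bad it was 77.1% in proliferating and 70.6% in non-neural cells. Thinning moved the share of cells with a Bcl2l1 UMI in proliferating cells from 8.07% to 1.99%, with Hrk in differentiating cells to 3.58% and with Pmaip1 in myoid-like and CGNP/CGN-like cells to 10.7% and 1.21%. Depth limits Bcl2, Bak1, Bbc3, Hrk and Pmaip1 most, each with under 100 UMIs in all cells.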

Other observations

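Barcodes removed by the filters, 1108 in all, held 346 member UMIs. Of these barcodes, 17 had enough UMIs and genes but more than 10% mitochondrial UMIs, a common sign of damaged cells, and they held 3 member UMIs among 12181. These counts are too few for a level of any member.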
